A study of Homo sapiens with 8 samples.

Results

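Calcineurin is the phosphatase that calcium and calmodulin switch on, and NFAT factors and RCAN proteins are its best known substrates and regulators. The 10 genes described here were the regulators RCAN1, RCAN2 and RCAN3, the calcineurin subunit genes PPP3CA, PPP3CB and PPP3R1, and the transcription factor genes NFATC1, NFATC2, NFATC3 and NFATC4. They were taken by symbol from the 19479 genes that both deposited tables list under the same gene numbers, and all 10 were found. RNA was sequenced from AC16, a proliferating human line derived by fusing adult ventricular cardiomyocytes with SV40-transformed fibroblasts. Its 8 libraries form 4 groups of 2. The 25 to 50 mM group was kept at 25 mM D-glucose for at least 3 passages and then given another 25 mM for 24 h, and the 25 mM group stayed at 25 mM. The 5 to 50 mM group was kept at 5 mM for at least 3 passages and then given another 45 mM for 24 h, and the 5 mM group stayed at 5 mM. All groups shared the same line, serum and antibiotics, and no other agent is named. The series calls the replicates technical, so SDs and p-values here reflect differences among libraries, not among independent cultures. Starting glucose and the culture kept at it cannot be told apart.

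A rise in cytosolic calcium loads calmodulin, which opens the active site of the calcineurin catalytic subunit held by its calcium-binding regulatory subunit. Active calcineurin removes phosphates from NFATc factors, which then enter the nucleus and bind DNA beside partners such as AP-1 or GATA4. In heart muscle this route is known for driving hypertrophic growth, and RCAN1 is one of its induced targets and a feedback inhibitor of the enzyme. NFAT5, a relative that calcineurin does not control, is known for the response to hypertonic stress.

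Libraries held 21538898 to 27372851 reads, recovered from the RPKM values (read density per gene length, corrected for library depth). At that depth 3 reads in a gene of 1 kb were worth 0.11 to 0.139 RPKM. The gene lengths behind the values were coding lengths, so levels compared between genes are per coding length. The label calls AC16 a cardiomyocyte line, but only 1 of 12 cardiomyocyte markers, ACTN2, reached 1 RPKM in any library, MYL2 and NKX2-5 were at 0 in all libraries, and the 12 together summed to 0.395 to 1.56 RPKM. All 11 fibroblast markers were expressed, with sums of 7420 to 8660 RPKM. Endothelial markers reached 1 RPKM in 0 of 4 cases, and CD68 was the 1 of 3 immune markers that did. In bulk RNA, fewer cells that express a gene and less RNA per cell cannot be told apart.

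RCAN1 (Entrez Gene 1827; chromosome 21, 34516442 to 34615113, minus strand, GRCh38.p14) has several first exons. The shorter isoform that starts inside the gene is the one known to be induced by calcineurin and NFAT. Promoter windows of the RCAN genes from RefSeq (GRCh38.p14), each 300 bases with 250 before and 50 after a start, are printed so that the internal RCAN1 start can be read beside the upstream one and beside those of its paralogs. The RCAN1 gene has 6 such windows. Capitals mark, on either strand, GGAAA (the NFAT core), TGANTCA (the AP-1 core) and TGACGTCA (a full CRE), and no marked match overlaps another.
RCAN1, internal start, chr21:34526773-34527072, minus strand: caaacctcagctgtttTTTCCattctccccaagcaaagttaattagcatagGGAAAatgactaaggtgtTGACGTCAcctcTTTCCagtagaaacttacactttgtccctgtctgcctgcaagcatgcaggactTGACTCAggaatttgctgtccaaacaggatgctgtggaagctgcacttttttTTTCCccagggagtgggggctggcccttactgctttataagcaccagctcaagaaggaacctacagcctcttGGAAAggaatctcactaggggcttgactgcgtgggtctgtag
RCAN1, upstream start, chr21:34615064-34615363, minus strand: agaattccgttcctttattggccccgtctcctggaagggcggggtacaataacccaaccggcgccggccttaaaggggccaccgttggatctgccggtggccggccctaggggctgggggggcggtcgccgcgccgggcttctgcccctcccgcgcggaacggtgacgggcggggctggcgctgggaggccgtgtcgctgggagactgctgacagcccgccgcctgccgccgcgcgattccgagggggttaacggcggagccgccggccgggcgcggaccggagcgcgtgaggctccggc
RCAN2, chr6:46325602-46325901, minus strand: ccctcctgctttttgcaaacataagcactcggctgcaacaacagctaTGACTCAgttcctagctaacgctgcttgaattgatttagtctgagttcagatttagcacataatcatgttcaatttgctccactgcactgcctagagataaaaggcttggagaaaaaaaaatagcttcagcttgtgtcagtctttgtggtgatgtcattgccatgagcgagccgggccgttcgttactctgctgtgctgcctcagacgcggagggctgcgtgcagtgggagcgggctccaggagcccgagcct
RCAN3, chr1:24502586-24502885, plus strand: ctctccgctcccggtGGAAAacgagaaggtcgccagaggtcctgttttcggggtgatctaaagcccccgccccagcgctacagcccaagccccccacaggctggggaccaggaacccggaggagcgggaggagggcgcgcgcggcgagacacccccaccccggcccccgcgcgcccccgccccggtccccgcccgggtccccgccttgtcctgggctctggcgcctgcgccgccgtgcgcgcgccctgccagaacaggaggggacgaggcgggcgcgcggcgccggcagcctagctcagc
The internal RCAN1 window held 5 matches to GGAAA, 1 to TGANTCA and 1 to TGACGTCA. Of all 35116 RefSeq windows of this length, 0.74% held at least 5 GGAAA matches, 7.71% held a TGANTCA match, 1.85% held a TGACGTCA match and 0.0427% (15 windows) held all 3 motifs. The upstream RCAN1 window held 0 matches to each. The RCAN2 window shown held 1 TGANTCA match, and the RCAN3 window 1 GGAAA match, which 61.2% of all windows also hold. Of the other 4 RCAN1 windows, 2 held 1 GGAAA match each, 1 of them with a TGANTCA match, and 2 held none. The other 2 RCAN2 windows held 2 and 0 GGAAA matches, and the other 2 RCAN3 windows 1 each, with a TGANTCA match in 1 of them. These motifs were chosen with the RCAN1 window known, and a match describes letters, not a bound site. The deposited values are per gene, so they do not show which RCAN1 start was used.

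RCAN1 was the member whose group means spanned the widest range, 0.98 on the log2 scale. Its level was 50.6 and 57.7 RPKM in the 25 to 50 mM libraries, against 48.2 and 41.0 RPKM in the 25 mM libraries. In the 5 to 50 mM libraries it was 45.4 and 45.8 RPKM, against 27.0 and 26.8 RPKM in the 5 mM libraries. The 5 mM libraries thus held the lowest levels by a wide gap, while 5 to 50 mM and 25 mM overlapped. In order of level, the group means were 54.2 ± 5.02 RPKM at 25 to 50 mM, 45.6 ± 0.293 at 5 to 50 mM, 44.6 ± 5.11 at 25 mM and 26.9 ± 0.178 at 5 mM (SD, n = 2 libraries each). The middle pair did not differ beyond its spread, and the 5 mM group stood clear below it. The 25 to 50 mM libraries lay above the middle pair without overlap, but neither of these differences was called. The adjusted p by limma was 0.502 against 25 mM and 0.0636 against 5 to 50 mM. Between 803 and 1988 reads per library lay behind these values.

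RCAN1 rose 1.67-fold in 5 to 50 mM over 5 mM libraries (log2 change 0.74, SE 0.0616, 95% interval 0.58 to 0.89, adjusted p = 0.0269 by limma over 11849 genes on log2(RPKM + 1)). It was the 1 called member (adjusted p under 0.05) of the 8 tested, and 0.329% of all genes tested were called there (37 up and 2 down). The libraries of the 2 groups did not overlap for RCAN1 and RCAN3, 2 of 8 members, against 42.6% of all genes tested. The RCAN1 call depended on the settings of the fit and the libraries in it. It was lost without a filter on low values (adjusted p = 0.114), without the mean-variance trend (0.0849), with a replicate block (0.174) and on leaving out 5 to 50 mM replicate 1 (0.181) or replicate 2 (0.271). It held in the other 9 of 14 alternatives, and the log2 change lay between 0.73 and 0.77 in all 14. Without either 5 to 50 mM library, the spread comes from the 5 mM pair alone. The 9 alternatives include the fits without either 5 mM library, where the spread comes from the 5 to 50 mM pair alone. Chi-square per gene between replicates was 2.6 for the 5 to 50 mM pair and 16.6 for the 5 mM pair. Of 5 smooth muscle markers, 4 reached 1 RPKM, and 3 (TAGLN, CNN1 and MYOCD) were higher in both 5 to 50 mM libraries than in either 5 mM library, while ACTA2 and MYH11 overlapped. Their sum of 1430 to 1500 RPKM at 5 to 50 mM and 1010 to 1050 RPKM at 5 mM was mostly TAGLN, which averaged 1420 RPKM at 5 to 50 mM and 993 RPKM at 5 mM. The part of these markers in the result was not tested.

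From 25 mM, the same gene had a log2 change of 0.28 (SE 0.0975, 95% interval 0.04 to 0.51, unadjusted p = 0.0288, adjusted p = 0.502 by limma) in 25 to 50 mM over 25 mM libraries, which did not overlap. Here 0 of 8 members were called by limma, 1 had an unadjusted p under 0.05, and voom on recovered reads also called 0. Of all genes tested, 0.00876% were called, which was 1 of 11422. The groups of 3 members, RCAN1, PPP3CB and NFATC3, did not overlap, against 43.5% of all genes tested. The smooth muscle markers TAGLN, ACTA2 and MYOCD were higher without overlap, with a sum over all 5 of 902 to 917 RPKM in 25 to 50 mM and 553 to 578 RPKM in 25 mM libraries, while CNN1 and MYH11 overlapped. The response from 5 mM minus that from 25 mM was 0.46 on the log2 scale for RCAN1 (SE 0.126, 95% interval 0.17 to 0.76, unadjusted p = 0.00681, adjusted p = 0.556 by limma over 11941 genes), so the difference between the responses did not pass the threshold. The added glucose also differed between the responses, at 45 mM and 25 mM. Of all genes tested, 0.0251% passed for this difference. Among members 0 passed by limma or voom, and 2, RCAN1 and RCAN3, had an unadjusted p under 0.05.

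Between cultures that had not been raised, RCAN1 was 1.63-fold higher at 25 mM than at 5 mM (log2 change 0.70, SE 0.089, adjusted p = 0.000681 by limma), a call that held in all 18 alternatives. Between the raised cultures its log2 change was 0.24 in 25 to 50 mM over 5 to 50 mM libraries (SE 0.089, adjusted p = 0.0636). That value passed the threshold in 5 of 18 alternatives: with median centring (adjusted p = 0.036), in a fit of the 4 compared libraries alone (0.042), and on leaving out 25 to 50 mM replicate 2 (0.0424), 25 mM replicate 1 (0.043) or 25 mM replicate 3 (0.0426). In both of these comparisons the smooth muscle markers were split. TAGLN and ACTA2 were lower without overlap, and CNN1, MYOCD and MYH11 were higher without overlap. Of all genes tested, 67.8% did not overlap between 25 mM and 5 mM, and 74.8% between the raised cultures. MYH11 stayed under 1 RPKM in all libraries. MYOCD averaged 1.61 RPKM at 25 mM, 0.56 at 5 mM, 2.47 at 25 to 50 mM and 2.15 at 5 to 50 mM. TAGLN averaged 530 RPKM at 25 mM, against 993 RPKM at 5 mM. CNN1 averaged 26.4 RPKM at 25 mM, against 11.5 RPKM at 5 mM.

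**Figure D1:**
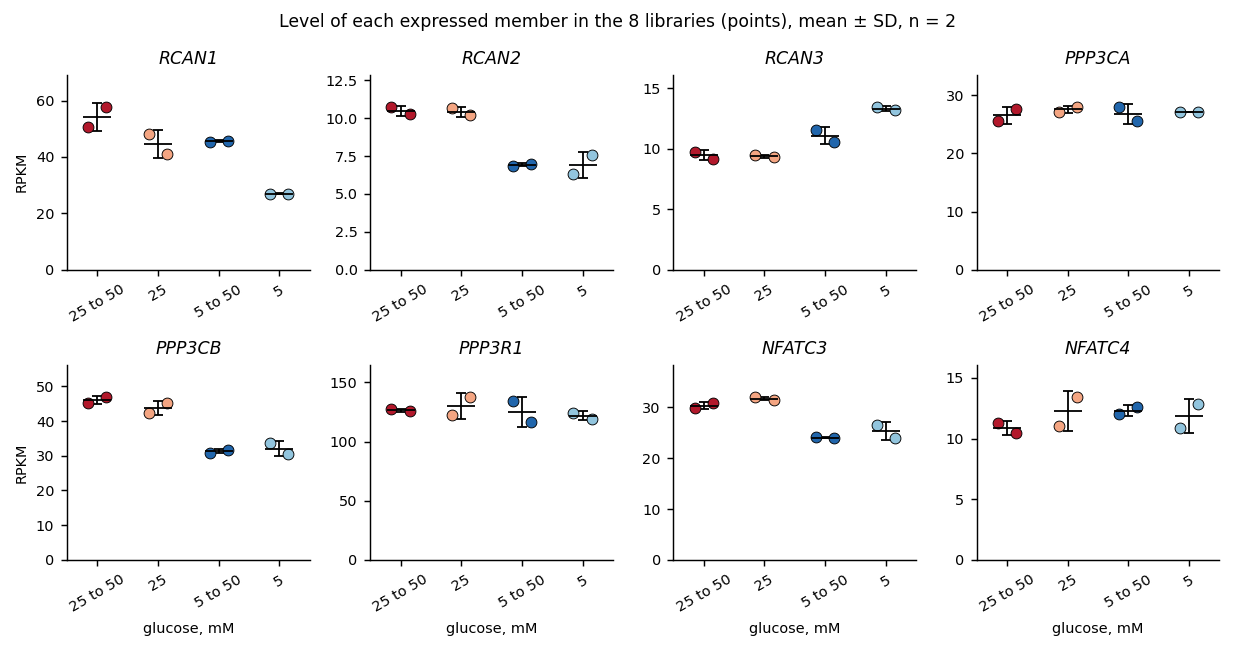
Level in RPKM (vertical axis, from 0) of the 8 expressed members in each of the 8 libraries, by glucose group in mM, with the group mean and SD of 2 libraries. RCAN1 is lowest in the 5 mM libraries (26.8 and 27.0 RPKM), RCAN2, PPP3CB and NFATC3 are higher in both groups that began at 25 mM, and PPP3CA stays between 25.5 and 28.0 RPKM.

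RCAN2 (Entrez Gene 10231; chromosome 6, 46220736 to 46491970, minus strand), another inhibitor of the family, was higher in the groups that began at 25 mM. It had 10.7 and 10.3 RPKM in 25 to 50 mM libraries, against 10.7 and 10.2 RPKM in 25 mM libraries. The 5 to 50 mM libraries had 6.85 and 6.99 RPKM, against 6.29 and 7.54 RPKM in the 5 mM libraries. Both groups that began at 25 mM lay above both that began at 5 mM, and within a start the groups overlapped. RCAN2 was 1.45-fold higher at 25 mM than at 5 mM (log2 change 0.54, SE 0.0919, adjusted p = 0.00299 by limma) and 1.45-fold higher at 25 to 50 mM than at 5 to 50 mM (0.54, adjusted p = 0.00271). Its log2 change was 0.01 in each rise, with 95% intervals of -0.27 to 0.28 from 5 mM and -0.18 to 0.20 from 25 mM. It rests on 111 to 233 reads per library. Its total of 1430 reads over all libraries was the lowest of the expressed members, with RCAN3 next at 1552.

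RCAN3 (Entrez Gene 11123; chromosome 1, 24502344 to 24541040, plus strand), which also encodes a calcineurin-binding regulator, was highest where RCAN1 was lowest. It had 9.75 and 9.15 RPKM in 25 to 50 mM libraries, against 9.45 and 9.28 RPKM in 25 mM libraries. The 5 to 50 mM libraries had 11.6 and 10.6 RPKM, against 13.4 and 13.2 RPKM in the 5 mM libraries. The 5 mM libraries were the highest, the 5 to 50 mM libraries next, and the groups that began at 25 mM overlapped below them. RCAN3 was lower at 25 mM than at 5 mM (log2 change -0.47, SE 0.075, adjusted p = 0.00218 by limma). Its change of -0.25 in 5 to 50 mM over 5 mM libraries (95% interval -0.47 to -0.03, adjusted p = 0.414) and of -0.21 in 25 to 50 mM over 5 to 50 mM libraries (adjusted p = 0.0606, and 0.0409 without the trend) did not pass in the fits as designed.

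In the makeup of the RCAN family, the shares of RCAN1 and RCAN3 stood apart at 5 mM, and that of RCAN2 did not. RCAN1 made up 73.0% ± 2.6 of the summed RCAN RPKM at 25 to 50 mM, 69.2% ± 2.0 at 25 mM, 71.7% ± 0.82 at 5 to 50 mM and 57.1% ± 1.0 at 5 mM (SD, n = 2 libraries each). RCAN3 made up 12.8% ± 1.3 at 25 to 50 mM, 14.6% ± 1.1 at 25 mM, 17.4% ± 1.0 at 5 to 50 mM and 28.2% ± 0.69 at 5 mM. The RCAN2 share was 14.2% ± 1.3 at 25 to 50 mM, 16.2% ± 0.89 at 25 mM and 14.7% ± 1.7 at 5 mM. It was lowest at 5 to 50 mM, at 10.9% ± 0.21. Summed, the 3 regulators reached 74.1 ± 4.3 RPKM (25 to 50 mM), 64.4 ± 5.6 RPKM (25 mM), 63.6 ± 0.32 RPKM (5 to 50 mM) and 47.1 ± 0.53 RPKM (5 mM). Set over the summed catalytic subunit genes PPP3CA, PPP3CB and PPP3CC, that gave ratios of 0.797 ± 0.026 at 25 to 50 mM, 0.708 ± 0.089 at 25 mM, 0.852 ± 0.0091 at 5 to 50 mM and 0.609 ± 0.03 at 5 mM. The ratio was lowest at 5 mM, and the 25 to 50 mM libraries (0.779 and 0.816) lay just above those of 25 mM (0.771 and 0.645). These shares are descriptions and were not tested.

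**Figure D2:**
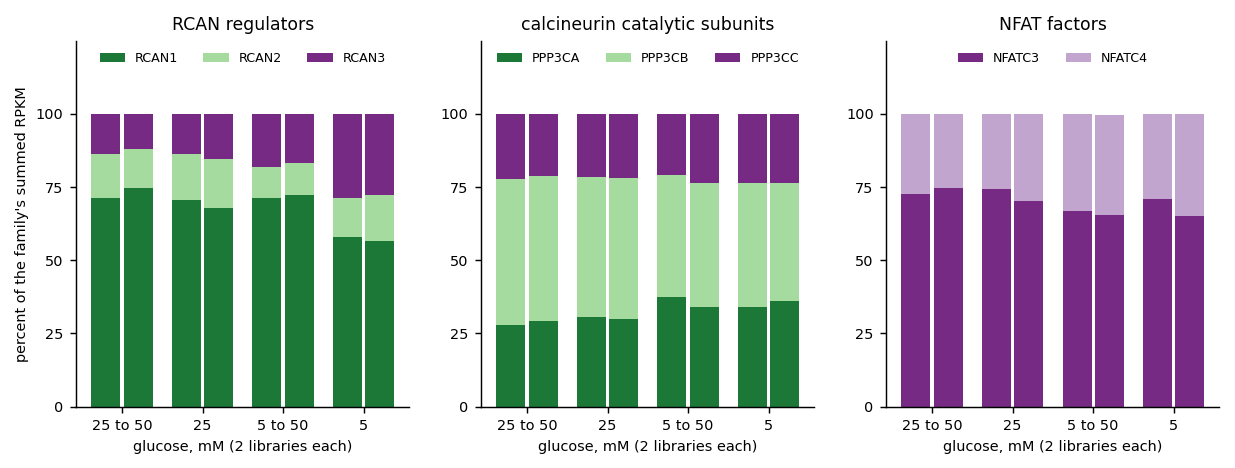
Share of each gene in its family's summed RPKM (vertical axis, percent) in the 8 libraries, 2 bars for each glucose group in mM. RCAN3 takes its largest share in the 5 mM libraries (28.7% and 27.8%), and PPP3CB takes more in the groups that began at 25 mM. NFATC1 and NFATC2, under 1% in each library, are not drawn.

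Of calcineurin's subunit genes, PPP3CB was higher in the groups that began at 25 mM, while PPP3CA and PPP3R1 were called in no comparison. PPP3CB (Entrez Gene 5532; chromosome 10, 73436433 to 73496024, minus strand) encodes the beta catalytic subunit, which in mice is the isoform needed for the full hypertrophic response of the heart. It had 45.3 and 46.8 RPKM in 25 to 50 mM libraries, against 42.4 and 45.2 RPKM in 25 mM libraries. The 5 to 50 mM libraries had 30.8 and 31.7 RPKM, against 33.6 and 30.5 RPKM in the 5 mM libraries. All 4 libraries that began at 25 mM lay above all 4 that began at 5 mM. PPP3CB was 1.36-fold higher at 25 mM than at 5 mM (log2 change 0.44, SE 0.0651, adjusted p = 0.00147 by limma) and 1.46-fold higher at 25 to 50 mM than at 5 to 50 mM (0.54, SE 0.0651, adjusted p = 0.000484). In the rises its log2 changes were -0.03 from 5 mM (95% interval -0.22 to 0.16) and 0.07 from 25 mM (-0.07 to 0.21), neither called. Its coding exons overlap the antisense gene PPP3CB-AS1, and whether the counting used strand is not given in the sources used here.

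PPP3CA (Entrez Gene 5530; chromosome 4, 101023418 to 101347526, minus strand), the alpha catalytic subunit, varied little. It had 25.5 and 27.6 RPKM in 25 to 50 mM libraries, 27.1 and 28.0 in 25 mM libraries, 28.0 and 25.5 in 5 to 50 mM libraries and 27.1 and 27.0 in 5 mM libraries. None of its 4 group comparisons was called, and the 95% intervals of its log2 changes lay within -0.21 and 0.18. The ratio of PPP3CB to PPP3CA was 1.73 ± 0.053 at 25 to 50 mM and 1.59 ± 0.038 at 25 mM, and 1.17 ± 0.099 at 5 to 50 mM and 1.18 ± 0.08 at 5 mM. PPP3CC, the third catalytic gene and not a member, took 21.8% to 23.7% of the summed catalytic RPKM on average in each group.

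PPP3R1 (Entrez Gene 5534; chromosome 2, 68178857 to 68252532, minus strand), the regulatory B subunit that every calcineurin needs outside the testis, was the most expressed member per coding length. It had 127.3 and 125.7 RPKM in 25 to 50 mM libraries, 122.3 and 137.5 in 25 mM libraries, 134.2 and 116.4 in 5 to 50 mM libraries and 124.5 and 119.5 in 5 mM libraries. The groups overlapped in each of the 4 comparisons, and none was called (log2 changes -0.04 to 0.09). Its coding exons overlap a second annotated gene on the same strand, AC017083.3, so the reads of both may be counted here. The testis form PPP3R2 was listed at 0 in all 8 libraries.

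NFATC3 carried most of the NFATc message. This broadly expressed factor (Entrez Gene 4775; chromosome 16, 68085370 to 68229259, plus strand) had 29.8 and 30.8 RPKM in 25 to 50 mM libraries, against 32.0 and 31.4 RPKM in 25 mM libraries. The 5 to 50 mM libraries had 24.1 and 24.0 RPKM, against 26.6 and 24.0 RPKM in the 5 mM libraries. As with PPP3CB and RCAN2, the 4 libraries that began at 25 mM lay above the 4 that began at 5 mM. The gene was 1.25-fold higher at 25 mM than at 5 mM (log2 change 0.32, SE 0.0641, adjusted p = 0.00639 by limma) and 1.25-fold higher at 25 to 50 mM than at 5 to 50 mM (0.32, adjusted p = 0.00538). Neither rise was called, with log2 changes of -0.07 from 5 mM and -0.06 from 25 mM. Its share of the summed NFATc RPKM was 73.5% ± 1.5 at 25 to 50 mM, 72.1% ± 2.9 at 25 mM, 66.0% ± 1.0 at 5 to 50 mM and 67.9% ± 4.1 at 5 mM. Non-coding genes overlap its coding exons on both strands.

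NFATC4 (Entrez Gene 4776; chromosome 14, 24366911 to 24379604, plus strand), known as the factor that acts with GATA4 in heart muscle, made up nearly all the rest. It had 11.3 and 10.5 RPKM in 25 to 50 mM libraries, 11.1 and 13.4 in 25 mM libraries, 12.0 and 12.6 in 5 to 50 mM libraries and 10.9 and 12.9 in 5 mM libraries. No comparison of NFATC4 was called, and its intervals were wide (-0.41 to 0.11 for 25 to 50 mM over 25 mM). NFATC1 (Entrez Gene 4772; chromosome 18, 79395930 to 79529323, plus strand), which in T cells and osteoclasts amplifies its own expression, had 0 reads in 7 libraries and 1 read in 5 to 50 mM replicate 2. A library with 0 reads allows up to 0.0368 to 0.0468 RPKM of NFATC1, counting error only. NFATC2 (Entrez Gene 4773; chromosome 20, 51386963 to 51562839, minus strand), the main NFATc factor of resting T cells, had 0 to 5 reads per library, or at most 0.0744 RPKM. Neither passed the filter of 1 RPKM in 2 libraries, so 8 of the 10 members were tested in every comparison.

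NFAT5, the relative outside calcineurin's control, had 14.0 and 13.3 RPKM in 25 to 50 mM libraries and 17.0 and 14.0 in 25 mM libraries. It had 14.5 and 14.0 RPKM in 5 to 50 mM libraries and 15.7 and 12.96 in 5 mM libraries. The rises gave log2 changes of -0.002 from 5 mM (SE 0.11) and -0.17 from 25 mM (SE 0.104), neither called.

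Counted together, 5 of 8 tested members were called between 25 mM and 5 mM, 4 of them higher (RCAN1, RCAN2, PPP3CB and NFATC3) and RCAN3 lower. That comparison called 39.1% of all genes tested (2032 up and 2639 down), so a count of this size is read against a large background. Members did not overlap between 25 mM and 5 mM in 6 of 8 cases, against 67.8% of all genes. Between 25 to 50 mM and 5 to 50 mM, 3 of 8 members were called, all higher (RCAN2, PPP3CB and NFATC3), against 41.4% of all genes tested (2164 up and 2782 down). There 6 of 8 did not overlap, against 74.8% of all genes. The split of all called genes depended on the scaling: quantile normalization gave 2648 up and 2068 down between 25 mM and 5 mM, and 3081 up and 2046 down between the raised cultures, where median centring gave 2799 up and 2377 down. The members' calls in these comparisons kept their direction under both scalings. The median log2 change of the tested members was 0.20 at 25 mM over 5 mM and 0.13 at 25 to 50 mM over 5 to 50 mM, beside -0.004 and -0.023 for all genes tested. In the rises the members' medians were -0.01 from 5 mM and -0.01 from 25 mM, beside -0.03 for all genes in each. The comparisons share libraries, so they are given side by side and not compared by overlap. Comparisons across the starting glucose set the 2 deposited tables beside each other, whose gene lengths were the same and whose upper quartiles of RPKM differed by at most 1.054 times.

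**Figure D3:**
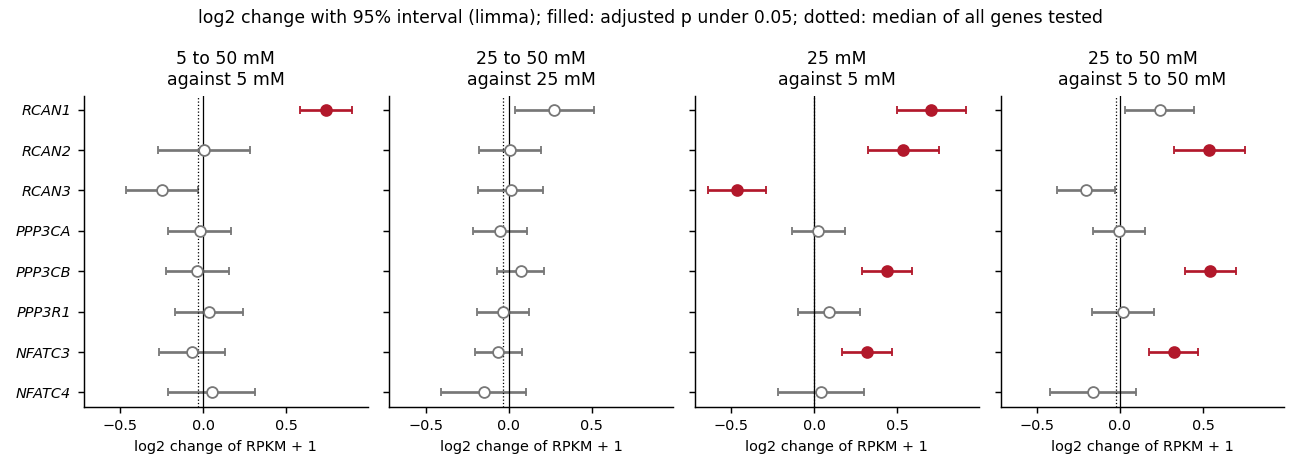
log2 change of RPKM + 1 (horizontal axis) of the 8 tested members in 4 comparisons, with 95% intervals from limma. Filled points passed an adjusted p of 0.05, and the dotted line is the median of all genes tested. RCAN1 is filled in the rise from 5 mM (0.74) and 5 members are filled in 25 mM against 5 mM, RCAN3 (-0.47) on the lower side.

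By likeness of level, the 5 genes closest to RCAN1 over the 8 libraries were CALD1 (Pearson r = 0.97), RGMB (0.96), NECTIN3 (0.96), MBOAT2 (0.95) and KIF1C (0.95), out of the 9610 genes that averaged 5 RPKM or more. RCAN1 was taken for this as the member with the widest range of group means. CALD1, which encodes the actin- and myosin-binding protein caldesmon, averaged 280.1 RPKM at 25 to 50 mM, 241 at 25 mM, 253 at 5 to 50 mM and 187 at 5 mM. RGMB, a co-receptor for bone morphogenetic proteins, averaged 83.4 RPKM at 25 to 50 mM, 73.2 at 25 mM, 77.4 at 5 to 50 mM and 63.3 at 5 mM. These r values describe 8 libraries in 4 groups of technical replicates, and the genes were picked as the highest of all compared.

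**Figure D4:**
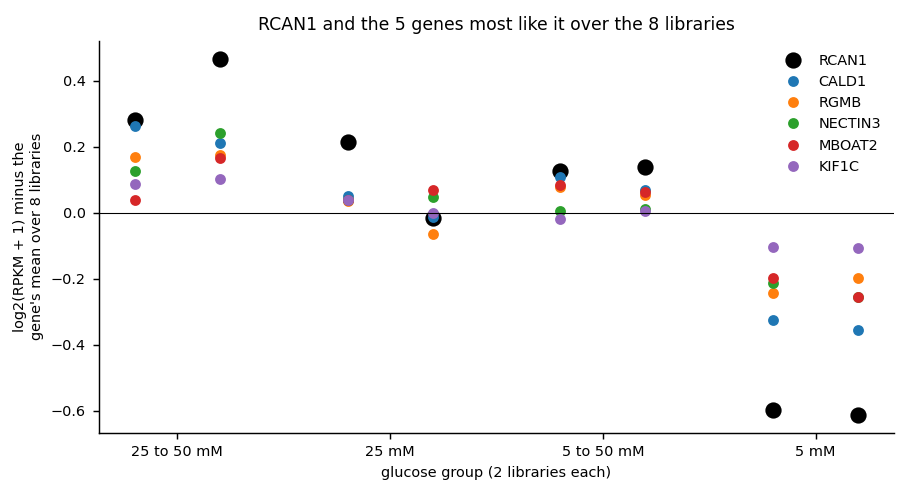
log2(RPKM + 1) of RCAN1 and of the 5 genes most like it, minus each gene's mean over the 8 libraries (vertical axis), by glucose group with 2 libraries each. All 6 genes are lowest in both 5 mM libraries, and RCAN1 has the widest range.

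Of 70 other genes of the pathway, placed in lists by role, few passed in the rises. In 5 to 50 mM over 5 mM libraries 1 of the 53 tested was called, EDN1. It encodes the vasoconstrictor endothelin, which is also known to set off hypertrophic growth of heart muscle cells, and stands in the list of targets. EDN1 averaged 45.0 ± 4.55 RPKM at 5 to 50 mM and 18.3 ± 0.734 RPKM at 5 mM (log2 change 1.25, SE 0.0917, adjusted p = 0.0269 by limma). The EDN1 call was lost in the same 5 of 14 alternatives as that of RCAN1, with adjusted p of 0.114 without the filter, 0.0849 without the trend, 0.0665 with a replicate block, and 0.077 and 0.0802 on leaving out 5 to 50 mM replicate 1 or replicate 2. Leaving out either 5 mM library moved the list count to 3. In 25 to 50 mM over 25 mM libraries 0 of 47 were called by limma or by voom, 6 had an unadjusted p under 0.05, and without 25 to 50 mM replicate 2 the count was 6. EDN1 averaged 27.4 ± 0.539 RPKM at 25 to 50 mM and 18.5 ± 0.706 RPKM at 25 mM (log2 change 0.55, adjusted p = 0.206). The 5 tested target genes had a median log2 change of 0.37 from 5 mM and the 3 tested ones 0.30 from 25 mM, beside -0.03 for all genes in each. From 25 mM the 3 were F3, CXCL8 and EDN1, as EGR2 and PTGS2 did not pass the filter there. The lists were chosen with earlier results of these data known, so these medians are descriptions only. The difference between the responses called 0 of 53 by limma and by voom, with 2 at an unadjusted p under 0.05, and for EDN1 it was 0.70 (adjusted p = 0.239).

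Between starting glucose levels, the share of these genes that was called was near that of all genes tested. Between 25 mM and 5 mM, 5 of 53 were higher and 14 lower, which is 35.8% against 39.1% of all genes, and between 25 to 50 mM and 5 to 50 mM, 6 were higher and 18 lower, which is 45.3% against 41.4%. Of the 19 calls between 25 mM and 5 mM, 13 held in every alternative run, and of the 24 between the raised cultures, 12 did. Both counts include GATA4, EGR2 and PTGS2, and the first also includes ITPR1. These genes passed the filter through the 5 mM side alone and were not fitted with the filter on a mean of 5 RPKM. The counts of held calls are therefore no support for a direction. The upstream calcium genes held 2 higher and 5 lower of 17 tested in each. ATP2B1, a plasma membrane calcium pump, averaged 48.4 ± 0.617 RPKM at 25 mM and 105.9 ± 3.35 RPKM at 5 mM (log2 change -1.11, adjusted p = 4.07e-06 by limma), while its relative ATP2B4 was higher at 25 mM (0.46, adjusted p = 0.00499). The inositol trisphosphate receptor gene ITPR3 (-0.83) and the store-operated channel gene ORAI3 (-0.99) were lower, ITPR1 and ITPR2 too, and the calmodulin gene CALM3 was higher (0.32). Of the 8 tested genes around the enzyme, 1 was higher and 2 lower at 25 mM than at 5 mM. FKBP1A, the binding protein of the calcineurin inhibitor tacrolimus, averaged 458 ± 6.76 RPKM at 25 mM and 914 ± 83.7 RPKM at 5 mM (-0.99, adjusted p = 2.06e-05), PPIA, the cyclosporin-binding protein, was lower (-0.19) and CHP1, a calcineurin B homologue, was higher (0.26). The PPIA call held in 12 of 18 alternatives and the value was 0.02 with quantile normalization, and the CHP1 call held in 14 of 18. FKBP1A and PPIA have processed pseudogenes, and how reads that match several places were counted is not given in the sources used here. At 25 to 50 mM over 5 to 50 mM the same list held 2 higher, CHP1 and PPP3CC (0.27), each called in 14 of 18 alternatives, and 2 lower, FKBP1A and PPIA, the last called in 9 of 18.

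Among kinases and carriers that return NFAT to the cytoplasm or hold it there, 2 were higher and 1 lower of 10 tested at 25 mM over 5 mM. DYRK1A, a kinase that primes NFAT for export, was higher (log2 change 0.27, adjusted p = 0.00855 by limma), as was the exportin XPO1 (0.24), and GSK3B, which completes that phosphorylation, was lower (-0.23). The GSK3B call held in 12 of 18 alternatives (adjusted p up to 0.107) and that of DYRK1A in 17 of 18. Between the raised cultures 1 was higher, XPO1 (0.19), and 2 were lower, the scaffold genes HOMER2 (-0.56) and HOMER3 (-0.53, adjusted p = 0.0474). These calls held in 14 of 18 alternatives for XPO1, 13 of 17 for HOMER2 and 9 of 18 for HOMER3. Of 12 tested partners and other substrates, 0 were higher and 2 lower at 25 mM than at 5 mM, GATA4 and FOS, against 1 higher (CRTC3) and 4 lower (GATA4, FOS, TFEB and DNM1L) at 25 to 50 mM than at 5 to 50 mM. Between the raised cultures the calls of CRTC3, TFEB and DNM1L held in 15 of 18, 13 of 17 and 13 of 18 alternatives. GATA4, the cardiac partner of NFAT, averaged 0.417 ± 0.231 RPKM at 25 mM and 3.04 ± 0.204 RPKM at 5 mM. The median of the 5 tested textbook targets was -1.15 at 25 mM over 5 mM and -1.09 at 25 to 50 mM over 5 to 50 mM, beside -0.004 and -0.023 for all genes. CXCL8, the neutrophil chemokine, averaged 12.1 ± 4.68 RPKM at 25 mM and 58.5 ± 2.36 RPKM at 5 mM. F3, the tissue factor of coagulation, averaged 108 ± 1.82 RPKM at 25 mM and 241 ± 4.88 RPKM at 5 mM. EGR2 and PTGS2, the inducible cyclooxygenase, were lower too, and EDN1 did not differ beyond its spread (0.01, adjusted p = 0.925). At 25 to 50 mM over 5 to 50 mM EDN1 was lower (-0.69, adjusted p = 0.000391 by limma), a call that held in all 18 alternatives. ITPR1, GATA4, EGR2 and PTGS2 reached 1 RPKM in 0 of the 4 libraries that began at 25 mM, and FOS in 1. These genes thus passed the filter through the 5 mM side alone. The list counts, and the median of the targets, which include EGR2 and PTGS2, are therefore no support for a direction. The other 10 of the 15 target genes, IL2 and IFNG at 0 among them, were not tested. The immune marker CD68 averaged 91.5 ± 0.276 RPKM at 25 mM and 246 ± 6.82 RPKM at 5 mM. PTPRC went the other way at a low level, with 0.165 ± 0.0417 RPKM at 25 mM and 0.105 ± 0.0274 RPKM at 5 mM. CD3E was at 0 in all libraries. The part of these markers in these values was not tested.

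**Figure D5:**
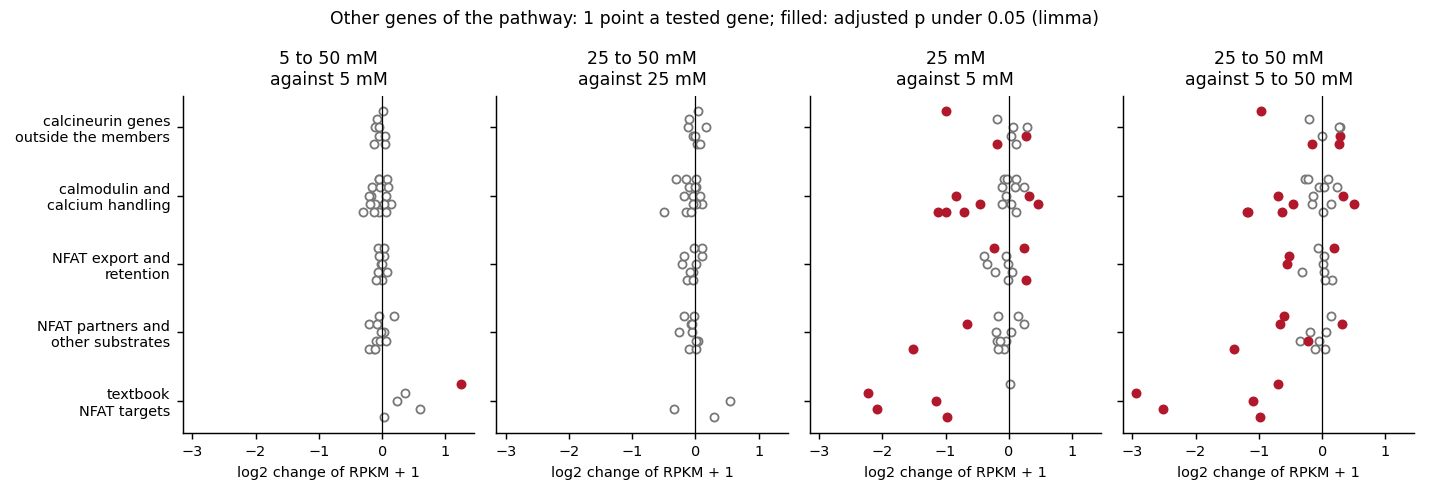
log2 change of RPKM + 1 (horizontal axis) of each tested gene in 5 lists of the pathway outside the members, in 4 comparisons. Filled points passed an adjusted p of 0.05 by limma. In the rises 1 gene is filled, EDN1 (1.25), and between starting glucose levels 19 and 24 genes are filled, most on the lower side. Of those on the lower side, ITPR1, GATA4, FOS, EGR2 and PTGS2 passed the filter through the 5 mM side alone. The split is therefore no support for a direction.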

How the data were processed

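RNA-seq of 8 AC16 libraries was analysed from 2 deposited tables of RPKM, 1 for each starting glucose, in which the authors scaled reads to gene length and library depth. Reads were aligned with STAR to hg38, per the submitters' processing notes. Not given in the sources used here are STAR's version, the counter, its annotation and its gene lengths.

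Whole reads and gene lengths were recovered from the RPKM values (all 16297 genes above 0, within 0.01 of a read). Of 13487 lengths, 83.7% were multiples of 3, and 65.3% of the 13330 genes matched to GENCODE 29 lay within 5% of the annotated coding length, against 0.518% within 5% of the exon length. The test was limma (3.58.1, in R 4.3.3), two-sided, on log2(RPKM + 1) with a mean-variance trend, over genes that reached 1 RPKM in 2 or more fitted libraries. P-values were adjusted over all tested genes by Benjamini and Hochberg, with a threshold of 0.05. Folds are on the log2(RPKM + 1) scale, which understates changes of low genes. Each rise used its own 4 libraries, and the other comparisons used all 8. The recovery and the fits were tested on simulated data.

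Named were all 10 members, NFAT5, the called genes of each pathway list or otherwise up to 3 of its most changed, and the 5 genes closest to the member with the widest range. The members and lists were chosen with earlier results of these data known. Alternatives were other pseudocounts (0.1 and 0.5 RPKM), other filters, median centring, quantile normalization, no trend, voom on recovered reads, a replicate block, another set of libraries in the fit, and each library left out. Floors for reads cover counting error only, while the 95% intervals come from limma and reflect the spread among libraries. Figures were drawn with matplotlib 3.10.9. Chromosome positions and promoter windows are those of RefSeq on GRCh38.p14. PPP3CA and PPP3CB had no promoter window in that table.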

Additional observations from a re-analysis of the deposited data

How the results depend on the processing

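Of 648 recomputed log2 changes of members, none of a called member changed direction. Reversals were all of members with a main log2 change of at most 0.07 in size and an adjusted p of at least 0.806. Outside the left-out libraries, they were RCAN2 with voom (-0.0051) and with the block (-0.00038) and PPP3CA with the block (0.043) in 5 to 50 mM over 5 mM. In 25 to 50 mM over 25 mM they were PPP3R1 with median centring (0.013) and the block (0.011), RCAN2 with the block (-0.028) and PPP3CA with the block (0.0058). In the difference of the responses they were PPP3CA with centring (-0.0087) and RCAN2 with the block (0.028), and in 25 to 50 mM over 5 to 50 mM PPP3CA with centring (0.053) and quantile normalization (0.034). With each library left out, the reversed results ranged as follows. In 5 to 50 mM over 5 mM, RCAN2 ran from -0.11 to 0.12, PPP3CA from -0.083 to 0.046, PPP3CB from -0.10 to 0.034, PPP3R1 from -0.067 to 0.14, NFATC3 from -0.14 to 0.0022 and NFATC4 from -0.058 to 0.16. In 25 to 50 mM over 25 mM, RCAN2 ran from -0.021 to 0.037, RCAN3 from -0.030 to 0.053, PPP3CA from -0.10 to 0.0036 and PPP3R1 from -0.12 to 0.049. In the difference, RCAN2 ran from -0.12 to 0.11, PPP3CA from -0.033 to 0.096, PPP3R1 from -0.032 to 0.17 and NFATC3 from -0.078 to 0.064. NFATC4 ran from -0.088 to 0.17 in 25 mM over 5 mM, and in 25 to 50 mM over 5 to 50 mM PPP3CA ran from -0.072 to 0.057 and PPP3R1 from -0.084 to 0.12.

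Counts of calls in the rise from 5 mM were 39 of all genes, 1 member and 1 list gene. All 3 became 0 without the filter, without the trend and with the replicate block. Over all genes the count was 60 with median centring, 61 with quantile normalization and 130 in a joint fit, and with each library left out it ran from 0 to 805, with 0 to 1 members and 0 to 3 list genes. From 25 mM the 1 call over all genes was 0 without the filter, without the trend and with the block, 4 with centring and in the joint fit, 2 with quantile normalization, 7 with voom and 0 to 777 with each library left out, where list genes ran from 0 to 6. The 3 calls for the difference of the responses were 0 with either pseudocount, with a mean of at least 5 RPKM, with voom and with the block, 1 without the filter and without the trend, and 0 to 6 with each library left out. Between starting levels, left-out libraries gave 3024 to 4769 calls for 25 mM over 5 mM and 3177 to 5733 for 25 to 50 mM over 5 to 50 mM, and the members' calls in them held in all 18 alternatives. The causes of these shifts were not tested. PPIA, called between starting levels, changed direction under quantile normalization (0.02 and 0.03). Calls of pathway genes lost between 25 mM and 5 mM were those of CHP1, GSK3B and PPIA with the block, GSK3B and PPIA in a fit of the 4 compared libraries, GSK3B with centring, PPIA without the filter, ITPR2 and PPIA with quantile normalization, CHP1, GSK3B and PPIA without either 25 mM library, FOS without 25 mM replicate 1, DYRK1A without 25 mM replicate 3, GSK3B without 5 mM replicate 1 and CHP1 without 5 mM replicate 3. Between the raised cultures the block lost 8 (CHP1, CRTC3, DNM1L, HOMER2, HOMER3, PPIA, PPP3CC and XPO1), quantile normalization 6 (FOS, HOMER2, ITPR1, ITPR2, PPIA and TFEB), centring 2 (DNM1L and PPIA), and no filter and no trend the same 2 each (HOMER3 and PPIA). Leaving out 25 to 50 mM replicate 2 or 3 lost 5 and 8, leaving out 5 to 50 mM replicate 1 or 2 lost 9 and 6, and leaving out either 25 mM library lost HOMER3.

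The labels do not say that replicate numbers pair the libraries. Only 25 mM and 5 mM share 2 numbers, with an r of deviations of 0.302. This r is the same for each number by construction, as the deviations of 2 libraries from their mean mirror each other. Other pairs of groups share at most 1 number (r -0.756 to -0.226). The block over all 8 libraries, with 2 residual degrees of freedom, gave RCAN1 a log2 change of 0.77 from 5 mM (adjusted p = 0.174) and left 5 and 3 members called between starting levels. Chi-square per gene between replicates was 7.84 at 25 to 50 mM, 6.73 at 25 mM, 2.6 at 5 to 50 mM and 16.6 at 5 mM, so the 5 mM pair differed most. Depth limits NFATC1 and NFATC2, which were at or near the floor.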
